A study of Mus musculus with 12 samples.

Results

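Transcript levels of 10 genes of the IL-6 and IL-12 cytokine families were followed in mouse bone marrow-derived macrophages (BMDMs) that had been polarized with IL-4, activated with LPS, or both. The members were the table rows whose gene symbol was Il6, Il12a, Il12b, Il23a, Il27, Ebi3, Lif, Osm, Il6ra or Il6st, which gave 10 of the 23847 rows in each of the 12 tables. Bone marrow cells of wild-type C57BL/6 mice aged 8 to 12 weeks were grown into macrophages over 6 days in the presence of M-CSF, supplied as L929 cell supernatant, and this was shared by all groups. The 4 groups held 3 samples each. BMDMs of the control group received neither agent, the IL-4 group had 20 ng/ml IL-4 during 24 h, the LPS group had 100 ng/ml LPS during 3 h, and the IL-4+LPS group had the same IL-4 exposure followed by the same LPS exposure. Per the study's description the replicates were individual animals, handled in more than 1 independent experiment. The labels did not say which replicate number belonged to which animal or experiment.

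IL-6 and IL-12 family cytokines are secreted signals through which activated macrophages instruct other cells. IL-6, LIF and oncostatin M signal through receptor complexes that contain gp130 (Il6st), and IL-6 first binds its own receptor chain (Il6ra). The IL-12 family is built from shared subunits: the p40 chain (Il12b) pairs with p35 (Il12a) to form IL-12 and with p19 (Il23a) to form IL-23, while EBI3 pairs with p28 (Il27) to form IL-27 and with p35 to form IL-35. IL-4 acts through the transcription factor STAT6 and turns macrophages towards the alternatively polarized state. LPS, a component of the outer membrane of Gram-negative bacteria, triggers inflammatory gene expression through TLR4.

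Expression is given as FPKM, the number of fragments divided by transcript length and by the sample's mapped fragments, so levels of different genes may be set side by side. The cells carried all 7 macrophage markers examined, with Csf1r from 411 to 932 FPKM. By limma at adjusted p under 0.05, 5 of the 7 were lower in IL-4 than in control samples. No marker was higher there, where 21.0% of all rows were lower and 16.0% higher. In IL-4+LPS minus LPS, 5 were lower and 1 higher, against 15.8% and 15.0% of all rows. In LPS minus control, 5 were lower and 0 higher, against 57.7% and 16.9%. Of 26 markers of other cell types, 19 stayed under 1 FPKM in every sample. Among the others, Cd4 reached 11.7 FPKM in controls while Cd3e, Cd3d and Cd8a stayed at or below 0.0675 FPKM. The summed neutrophil markers Mpo, Elane, Ngp and Camp ran from 64.8 to 142 FPKM in controls and from 24.3 to 65.4 FPKM in IL-4 samples. They ran from 72.2 to 182 FPKM in LPS and from 51.4 to 128 FPKM in IL-4+LPS samples, so the control, LPS and IL-4+LPS groups overlapped. The dendritic cell marker Zbtb46 moved in the same direction as Il6, Il12a and Il23a, with at most 0.135 FPKM in controls, 0.474 FPKM in IL-4 and 0.562 FPKM in LPS samples and 1.94 to 2.83 FPKM in IL-4+LPS samples (IL-4+LPS minus LPS 1.16, adjusted p = 5.47e-05, interaction 0.83, adjusted p = 0.0147, limma). The other 4 dendritic cell markers, Flt3, Xcr1, Clec9a and Siglech, stayed at or below 0.514 FPKM. Siglech and Xcr1 went the other way. Siglech had 0.514, 0.291 and 0.344 FPKM in LPS samples and 0.153, 0.210 and 0.211 FPKM in IL-4+LPS samples. Xcr1 had 0.114, 0.135 and 0.205 FPKM in LPS samples and 0.0790, 0.0927 and 0.0893 FPKM in IL-4+LPS samples. Flt3 and Clec9a overlapped between these groups. The sum of all 5 ran from 1.11 to 1.31 FPKM in LPS and from 2.46 to 3.27 FPKM in IL-4+LPS samples, where Zbtb46 made up most of it. The basophil marker Mcpt8 reached 1.76 FPKM and was higher in IL-4+LPS than in LPS samples (0.66, adjusted p = 0.0299). Only rows with at least 1 FPKM in at least 1 sample were tested. Zbtb46 and Mcpt8 reached this level only in IL-4+LPS samples, Mcpt8 in 1 of them. Their calls as higher in that group are not independent of this filter, and markers under 1 FPKM in every sample were not tested. The part of such cells in the results was not tested. In these bulk samples a smaller number of cells of a type and less RNA per cell cannot be told apart. Of genes known to mark each treatment, 4 of 4 were higher in IL-4 than in control samples (Retnla, Arg1, Mrc1 and Chi3l3) and 4 of 4 in LPS than in control samples (Il1b, Irg1, Cxcl10 and Nos2). Total FPKM per sample ran from 457583 to 495025, and the deepest sample was 3.30 times as deep as control replicate 1 by the steps between low values. Replicate 1 stood apart in every group: the mean correlation of log2 values was 0.977 between replicates 2 and 3 and 0.959 for pairs with replicate 1. It was also the shallowest sample of every group, at relative depths of 0.991 to 1.032, while replicates 2 and 3 lay at 1.266 to 3.296. Replicate number 1 and low depth therefore coincide.

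The bases just before the transcription start are shown for 4 genes that represent the patterns described below: Il6 and Il12a, which were higher in IL-4+LPS than in LPS samples, Il12b, for which no difference passed the test, and Ebi3, which was lower. The 250 bases before each RefSeq start site (assembly GRCm38.p6, 5′ to 3′ on the gene's strand, all on the plus strand) are in lower case, and capitals mark matches to the motifs named below.
Il6, chr5:30012864-30013113: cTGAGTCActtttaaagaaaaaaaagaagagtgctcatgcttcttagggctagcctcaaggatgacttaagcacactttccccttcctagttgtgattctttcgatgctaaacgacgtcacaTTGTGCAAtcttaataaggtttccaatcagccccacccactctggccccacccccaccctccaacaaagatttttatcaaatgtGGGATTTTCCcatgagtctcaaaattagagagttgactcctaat
Il12a first start, chr3:68690394-68690643: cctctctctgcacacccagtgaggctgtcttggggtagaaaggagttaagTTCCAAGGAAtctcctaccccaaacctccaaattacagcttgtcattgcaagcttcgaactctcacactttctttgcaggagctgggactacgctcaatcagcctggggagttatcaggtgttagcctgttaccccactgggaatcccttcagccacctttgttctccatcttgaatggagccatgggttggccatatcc
Il12a second start, chr3:68691174-68691423: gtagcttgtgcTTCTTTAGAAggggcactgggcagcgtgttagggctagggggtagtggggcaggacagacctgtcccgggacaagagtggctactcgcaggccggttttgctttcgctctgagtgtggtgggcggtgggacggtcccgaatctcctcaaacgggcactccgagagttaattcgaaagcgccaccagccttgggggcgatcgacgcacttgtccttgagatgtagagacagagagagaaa
Il12b, chr11:44399813-44400062: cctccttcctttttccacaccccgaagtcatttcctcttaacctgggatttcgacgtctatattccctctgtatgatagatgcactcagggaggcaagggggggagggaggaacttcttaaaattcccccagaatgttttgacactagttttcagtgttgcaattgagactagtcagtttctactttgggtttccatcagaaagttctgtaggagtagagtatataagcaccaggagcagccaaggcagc
Ebi3, chr17:55952373-55952622: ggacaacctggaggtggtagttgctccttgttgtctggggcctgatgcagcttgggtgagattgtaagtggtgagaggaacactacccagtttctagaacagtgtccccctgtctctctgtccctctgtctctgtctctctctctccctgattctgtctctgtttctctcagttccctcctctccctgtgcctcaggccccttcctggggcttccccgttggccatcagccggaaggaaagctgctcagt

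The motif patterns were searched on both strands in windows of 300 bases, 250 before to 50 after each start, where N is any base. RefSeq windows were at hand for 7 of the 10 members, 8 windows in all, and none for Il23a, Il27 and Osm. Positions count from the RefSeq start. For Il6 that start directly follows base 30013113 and lies upstream of the gene start given below, 30013161. The Il6 window held a kB motif (GGGNNNTTCC) as GGGATTTTCC with its first base at -44, a C/EBP motif (TTNNGCAA) as TTGTGCAA at -128 and an AP-1 motif (TGANTCA) as TGAGTCA at -249, counted from the start site. Matches to these patterns were found in 5.56%, 10.8% and 7.81% of all 32851 mouse promoter windows of the same length. Each of the Il12a windows held a match to the STAT6 pattern (TTCNNNNGAA), as TTCCAAGGAA at -200 before the first start and TTCTTTAGAA at -239 before the second, a pattern present in 6.95% of all windows. An AP-1 match stood at -228 before Lif. No match was found in the windows of Il12b, Ebi3, Il6ra and Il6st, and neither the shorter STAT pattern (TTCNNNGAA, 8.30% of all windows) nor the IRF pattern (GAAANNGAAA, 3.44%) matched in any member window. A match describes letters in the window and is not evidence of binding. Equally, a missing match applies only to the patterns as written and to the window searched. Sites whose letters differ from these patterns, such as other forms of the kB motif, were not searched. The windows without a match may therefore still hold sites for these factors.

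The first comparison asked how the family responded to LPS in BMDMs that had not seen IL-4. LPS samples had higher Il6, Il12a, Il12b, Il27 and Ebi3 and lower Osm, Il6ra and Il6st than controls, and the difference in Il23a did not pass the test. Tests used limma on log2(FPKM + 1) over all 11191 rows that reached 1 FPKM in at least 1 sample, with Benjamini-Hochberg adjustment within each contrast and a threshold of 0.05, and a fold change on this scale understates the change of low genes. Of the 10 members, 9 passed that filter and Lif did not. Il6, Il12a and Il12b passed it only through samples with LPS, and Il23a only through IL-4+LPS samples. Their calls as higher in those groups are not independent of the filter. In LPS minus control, 5 of the 9 were higher and 3 lower, against 16.9% of all rows tested called higher and 57.7% called lower. The median log2 fold change was 1.61 over the 9 members and -0.44 over all rows. The shift of all rows depended on scaling: quantile normalization moved it to -0.12, with 2903 rows higher and 4326 lower in place of 1887 and 6462, and median scaling moved it to -0.14, with 2966 higher and 4453 lower.

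The second comparison asked how the same genes responded to LPS after 24 h of IL-4. In IL-4+LPS minus IL-4, 7 of the 9 members tested were higher and 2 lower, against 15.0% and 57.9% of all rows. The median was 3.12 over the members and -0.41 over all rows, and under quantile normalization the rows called higher and lower went from 1682 and 6474 to 2461 and 4173, under median scaling to 2629 and 4057. The pair of contrasts on IL-4 gave fewer calls. In IL-4 minus control, 1 member was higher and 3 were lower, against 16.0% and 21.0% of all rows, with medians of -0.06 over the members and -0.05 over all rows. In IL-4+LPS minus LPS, 5 members were higher and 2 lower, against 15.0% and 15.8% of all rows, with medians of 0.62 and -0.03. The 5 included Il23a, which entered the test through IL-4+LPS samples only. The interaction, the amount by which the response to LPS after IL-4 exceeded that without IL-4, passed the threshold for 3 members, all higher, against 4.58% of all rows higher and 4.63% lower. With replicates 2 and 3 alone, 6 members were higher and 3 lower in LPS minus control, 7 and 2 in IL-4+LPS minus IL-4, 1 and 4 in IL-4 minus control, 6 and 2 in IL-4+LPS minus LPS, and 5 and 0 in the interaction, the additions being Il23a and Il27. The contrasts share samples, so their values are given side by side and are not separate evidence.

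**Figure D1:**
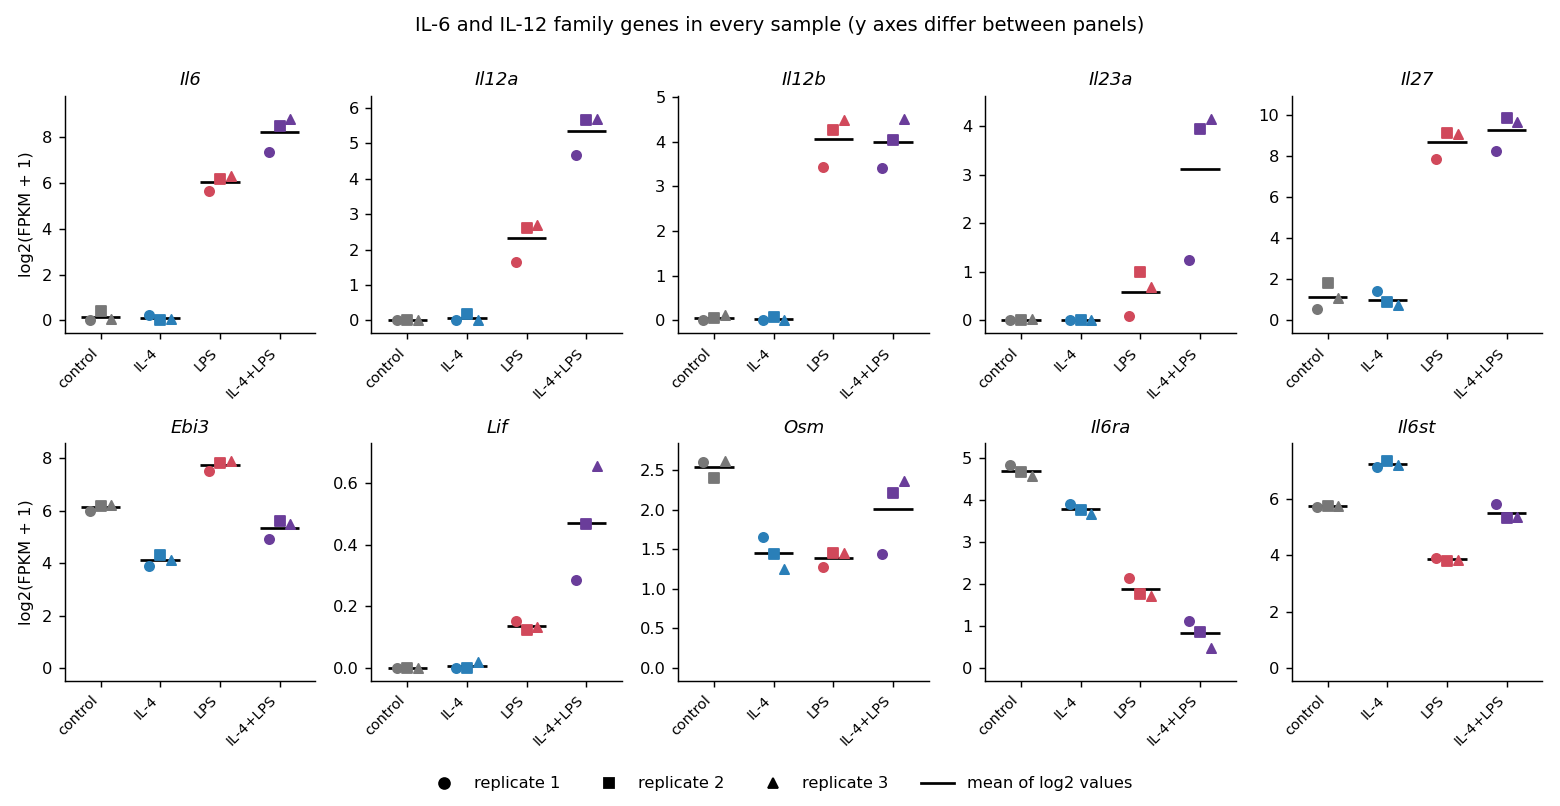
Levels of the 10 members in each of the 12 samples, as log2(FPKM + 1) on the y axis, with the 4 groups on the x axis, symbols for replicates 1 to 3 and a bar at the mean of each group. Il6, Il12a and Il23a are highest in all 3 IL-4+LPS samples, Il12b and Il27 overlap between LPS and IL-4+LPS, Ebi3 is highest in LPS samples, and Il6ra is lowest in IL-4+LPS samples.

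Il6 encodes interleukin 6, an inflammatory cytokine that induces acute phase proteins and supports T cell differentiation (mm10 chr5:30013161-30019968, plus strand). Its level was 0, 0.352 and 0.0570 FPKM in control replicates 1 to 3, and 0.190, 0 and 0.0540 FPKM in IL-4 samples. Read from the steps between low values, these levels stood for 0 to 5 fragments per sample, so Il6 was near the limit of detection in both groups. LPS samples had 48.8, 71.9 and 78.1 FPKM (66.3 ± 15.4, SD, n = 3). IL-4+LPS samples had 163, 355 and 447 FPKM (322 ± 145, SD, n = 3), and the lowest of them was above the highest LPS sample. The mean was 4.85-fold higher in IL-4+LPS than in LPS samples, with a log2 fold change of 2.17 (SE 0.32, adjusted p = 0.000525). The LPS response was 5.87 on the log2 scale without IL-4 (adjusted p = 9.04e-08) and 8.10 after it (adjusted p = 1.22e-08), and the interaction was 2.23 (SE 0.45, adjusted p = 0.0119). With a pseudocount of 0.1 the interaction no longer passed (2.41, adjusted p = 0.107).

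Osm encodes oncostatin M (chr11:4236785-4241026, plus strand) and Lif encodes leukemia inhibitory factor (chr11:4257568-4272514, plus strand), a pair of gp130 cytokines whose genes lie 16.5 kb apart. Osm had 5.08, 4.31 and 5.12 FPKM in controls, 2.16, 1.73 and 1.37 FPKM in IL-4 samples, 1.42, 1.74 and 1.74 FPKM in LPS samples, and 1.72, 3.66 and 4.16 FPKM in IL-4+LPS samples. Every control sample was above every other sample, and IL-4+LPS replicate 1 lay within the LPS samples. Osm fell with LPS without IL-4 (-1.15, SE 0.21, adjusted p = 0.000494) and with IL-4 alone (-1.09, adjusted p = 0.00237). After IL-4 its difference with LPS had the opposite sign (0.56, adjusted p = 0.0322), and the interaction of 1.71 was past the threshold (SE 0.29, adjusted p = 0.00501). Its difference between IL-4+LPS and LPS samples (0.62, adjusted p = 0.0461) lost the call in 10 of the 12 fits that left out 1 sample, and that between IL-4+LPS and IL-4 samples lost it in 4 of 12.

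Lif was listed at 0 in all controls and in 2 of the 3 IL-4 samples, and reached 0.112, 0.0887 and 0.0970 FPKM in LPS samples and 0.220, 0.384 and 0.575 FPKM in IL-4+LPS samples. The LPS and IL-4+LPS samples did not overlap. No sample reached 1 FPKM, and no test was made.

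Il6ra encodes the chain that binds IL-6 (chr3:89869324-89913162, minus strand). Controls had 27.6, 24.4 and 22.8 FPKM, IL-4 samples 14.2, 12.7 and 11.7 FPKM, LPS samples 3.41, 2.38 and 2.29 FPKM, and IL-4+LPS samples 1.18, 0.816 and 0.403 FPKM. The 4 groups did not overlap and lay in that order. Il6ra fell with LPS by 2.82 on the log2 scale (adjusted p = 1.47e-07), with IL-4 by 0.91 (adjusted p = 0.00181). Between the means, IL-4+LPS samples were 3.38-fold below LPS samples (-1.05, SE 0.17, adjusted p = 0.00082). The interaction was -0.14 with a 95% interval from -0.66 to 0.38 (adjusted p = 0.771). This interval is on the log2(FPKM + 1) scale, which compresses the low values of the IL-4+LPS samples. By means, Il6ra was 9.25-fold lower with LPS without IL-4 and 16.1-fold lower with LPS after it.

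Il6st encodes gp130, the signal transducing chain shared by the IL-6 family (chr13:112464070-112506860, plus strand). Controls had 51.4, 52.6 and 52.7 FPKM and IL-4 samples 138, 162 and 147 FPKM. LPS samples had 14.1, 13.1 and 13.2 FPKM, and IL-4+LPS samples 56.1, 38.8 and 39.9 FPKM. All IL-4 samples were above all controls and all IL-4+LPS samples above all LPS samples. Il6st rose with IL-4 by 1.49 (SE 0.12, adjusted p = 8.06e-06), fell with LPS by 1.88 (adjusted p = 2.94e-07), and was 3.34-fold higher by means in IL-4+LPS than in LPS samples (1.65, adjusted p = 4.21e-06). The LPS response after IL-4 was -1.72, and the interaction of 0.16 had a 95% interval from -0.22 to 0.54 (adjusted p = 0.639).

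The chains of the IL-6 receptor differed in their sign with IL-4. The ratio of Il6st to Il6ra FPKM was 1.86, 2.16 and 2.31 in controls, 9.74, 12.7 and 12.6 in IL-4 samples, 4.14, 5.49 and 5.73 in LPS samples, and 47.7, 47.6 and 99.1 in IL-4+LPS samples. The groups did not overlap in this ratio, which was highest in the IL-4+LPS samples. In the last group the ratio rests on Il6ra values near 1 FPKM.

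Il12a encodes p35 (chr3:68690644-68698547, plus strand). It was listed at 0 in all controls and in IL-4 replicates 1 and 3, with 0.131 FPKM in IL-4 replicate 2. LPS samples had 2.11, 5.07 and 5.49 FPKM (4.22 ± 1.84, SD, n = 3), and IL-4+LPS samples had 24.3, 49.4 and 50.5 FPKM (41.4 ± 14.8, SD, n = 3). The groups with LPS did not overlap, and the mean was 9.81-fold higher after IL-4 pretreatment (3.02, SE 0.30, adjusted p = 3.70e-05). The LPS response was 2.31 without IL-4 (adjusted p = 4.80e-05) and 5.28 after it (adjusted p = 1.55e-07), with an interaction of 2.96 (SE 0.43, adjusted p = 0.00199).

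Il12b encodes p40 (chr11:44400063-44414017, plus strand). It had at most 0.0866 FPKM in controls and 0.0535 FPKM in IL-4 samples, which stood for 0 to 6 fragments per sample. LPS samples had 9.77, 18.0 and 21.3 FPKM and IL-4+LPS samples 9.70, 15.4 and 21.8 FPKM. These samples covered the same range, and replicate 1 was the lowest in each group. Il12b rose with LPS by 4.0 without IL-4 (adjusted p = 5.83e-07) and by 3.96 after it (adjusted p = 7.40e-07). The difference between IL-4+LPS and LPS samples was -0.06 with a 95% interval from -0.70 to 0.57 (adjusted p = 0.899), and the interaction was -0.03 with an interval from -0.93 to 0.86 (adjusted p = 0.977).

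Il23a encodes p19 (chr10:128296140-128298084, minus strand). It was listed at 0 in 5 of the 6 samples without LPS, with 0.0218 FPKM, or 1 fragment, in control replicate 3. LPS samples had 0.0697, 0.993 and 0.603 FPKM, standing for 1, 36 and 12 fragments, and IL-4+LPS samples had 1.38, 14.4 and 16.8 FPKM, standing for 19, 254 and 462 fragments. Replicate 1 was the lowest in each of these groups, while every IL-4+LPS sample was above every LPS sample. Against the IL-4 group, where 3 fragments over the group is the limit that a count of 0 allows, Il23a was at least 228-fold higher in IL-4+LPS samples. This floor covers counting error only. Il23a reached the filter of 1 FPKM only in IL-4+LPS samples, so it entered the tests through the group where it was high. Its calls as higher in that group are therefore not independent of the filter. The log2 fold change from LPS to IL-4+LPS samples was 2.53 (SE 0.61, adjusted p = 0.00957), a 19.6-fold difference of the means, and the LPS response after IL-4 was 3.12 (adjusted p = 0.000873). LPS minus control (0.58, adjusted p = 0.402) and the interaction (2.54, adjusted p = 0.0967) did not pass. Of the 12 fits that left out 1 sample, only that without IL-4+LPS replicate 1 gave calls, at 0.58 (adjusted p = 0.0174) and 3.47 (adjusted p = 0.000136). Over the 12 fits the adjusted p reached 0.647 and 0.189. IL-4+LPS replicate 1 is not part of LPS minus control, so that estimate stayed at 0.58 and only its SE changed, from 0.61 to 0.19.

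Il27 encodes p28 (chr7:126589295-126594910, minus strand). Controls had 0.498, 2.48 and 1.10 FPKM and IL-4 samples 1.67, 0.838 and 0.665 FPKM. LPS samples had 231, 561 and 530 FPKM (441 ± 182, SD, n = 3) and IL-4+LPS samples 300, 915 and 811 FPKM (675 ± 329, SD, n = 3). By means, this was the highest member in both groups with LPS. Il27 rose with LPS by 7.53 (adjusted p = 2.69e-07) without IL-4 and by 8.24 after it (adjusted p = 1.72e-07), the latter being 638-fold by means. Replicate 1 again had the lowest value in both groups, and the difference between IL-4+LPS and LPS samples, 0.56 with a 95% interval from -0.51 to 1.63, did not pass (adjusted p = 0.423). With replicates 2 and 3 alone it did (0.66, adjusted p = 0.0460). Of the exon bases of Il27, 10.1% are shared with Apobr on the opposite strand, and the counting did not use strand as far as described.

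Ebi3 encodes the partner of p28 and p35 (chr17:55952623-55957022, plus strand). Of the IL-12 family genes it was the only one above 3 FPKM in controls, with 63.1, 71.8 and 73.9 FPKM. IL-4 samples had 14.0, 18.8 and 16.3 FPKM, LPS samples 184, 228 and 236 FPKM, and IL-4+LPS samples 29.2, 48.1 and 43.6 FPKM. The groups did not overlap, and every IL-4+LPS sample was below every control. Ebi3 rose with LPS by 1.61 (SE 0.18, adjusted p = 1.28e-05), fell with IL-4 by 2.03 (adjusted p = 1.29e-05), and was 5.35-fold lower by means in IL-4+LPS than in LPS samples (-2.41, adjusted p = 4.03e-06). After IL-4 the LPS response was 1.23 (adjusted p = 0.000108), and the interaction of -0.38 had a 95% interval from -0.94 to 0.17 (adjusted p = 0.407). Of its exon bases, 23.4% are shared with Gm16712 on the opposite strand, and reads of the pair could not be told apart without strand.

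**Figure D2:**
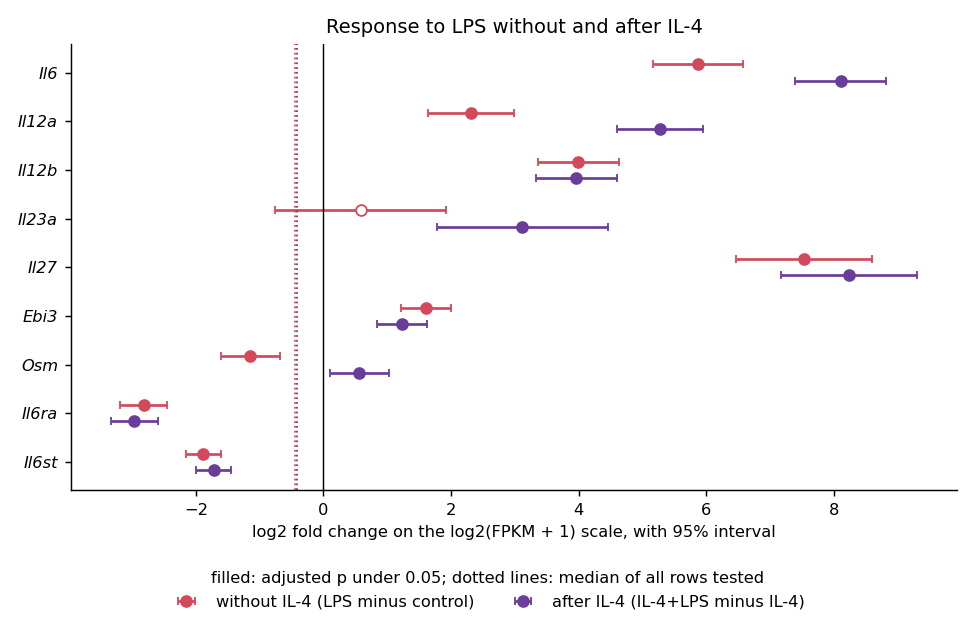
LPS response of the 9 tested members as log2 fold change on the log2(FPKM + 1) scale, without IL-4 (LPS minus control) and after it (IL-4+LPS minus IL-4), with 95% intervals from limma, filled points where the adjusted p was under 0.05 and dotted lines at the medians of all rows tested. Il6 moves from 5.87 to 8.10 and Il12a from 2.31 to 5.28, Osm goes from -1.15 to 0.56, and the points of Il12b lie at 4.0 and 3.96.

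**Figure D3:**
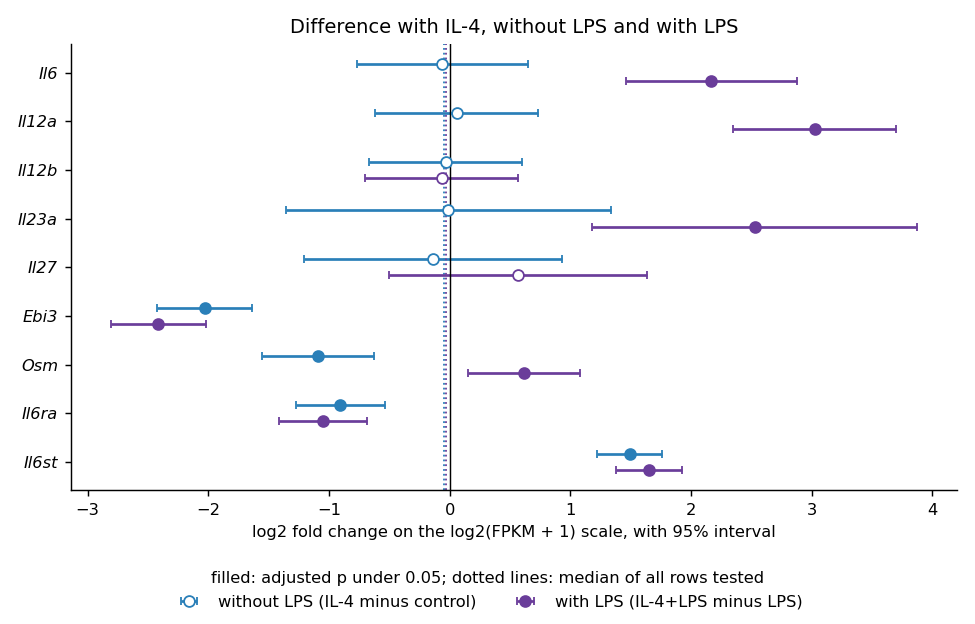
Difference with IL-4 for the same 9 members as log2 fold change with 95% intervals, in samples without LPS (IL-4 minus control) and with LPS (IL-4+LPS minus LPS). Il6, Il12a and Il23a lie near 0 without LPS and at 2.17, 3.02 and 2.53 with it, while Ebi3, Il6ra and Il6st differ in the same direction in both comparisons.

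The subunit genes of one cytokine stood in different proportions in LPS and IL-4+LPS samples. The ratio of Il12b to Il12a FPKM was 4.63, 3.56 and 3.88 in LPS samples and 0.398, 0.311 and 0.432 in IL-4+LPS samples, so p40 transcripts exceeded p35 transcripts in the former group and were fewer in the latter. For the genes of IL-27, the ratio of Il27 to Ebi3 was 1.26, 2.47 and 2.25 in LPS samples and 10.3, 19.0 and 18.6 in IL-4+LPS samples. The ratio of Ebi3 to Il12a was 86.9, 44.9 and 43.0 in LPS samples and 1.20, 0.974 and 0.862 in IL-4+LPS samples. None of these ratios overlapped between the groups. For the genes of IL-23, the ratio of Il12b to Il23a was 140.2, 18.2 and 35.3 in LPS samples and 7.03, 1.07 and 1.30 in IL-4+LPS samples, and replicate 1 rested on a single Il23a fragment in LPS. Protein was not measured, and the ratios describe transcripts only.

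**Figure D4:**
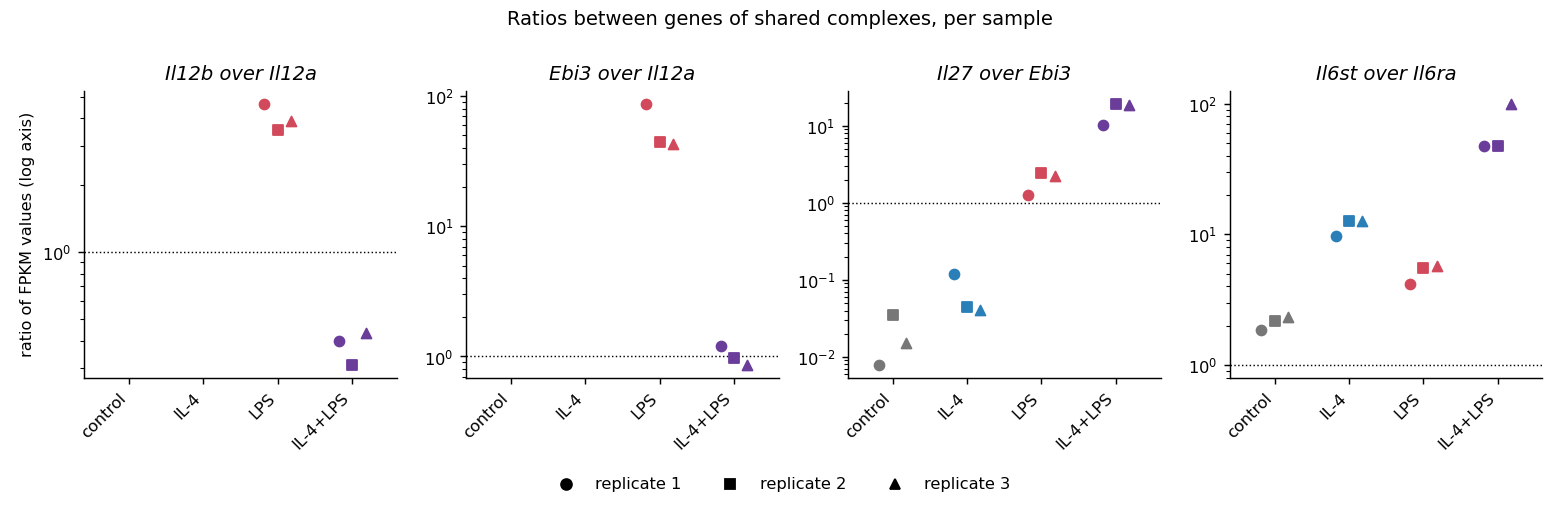
Ratios of FPKM values between genes whose products share a complex, per sample on a log axis, with a dotted line at 1 and symbols for replicates 1 to 3. Ratios over Il12a are not shown for the control and IL-4 groups, where Il12a was at or near 0. Il12b over Il12a lies at 3.56 or above in LPS samples and at 0.432 or below in IL-4+LPS samples, and Il6st over Il6ra is highest in the IL-4+LPS samples.

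Among other ligand genes of the gp130 family, Cntf, Ctf1 and Il11 stayed under 1 FPKM in every sample, and Clcf1, which encodes cardiotrophin-like cytokine factor 1, passed the filter. Clcf1 had 1.35, 2.53 and 1.72 FPKM in controls, 3.27, 5.32 and 3.10 FPKM in IL-4 samples, 6.82, 9.95 and 9.54 FPKM in LPS samples, and 12.2, 21.0 and 22.5 FPKM in IL-4+LPS samples. The 4 groups did not overlap. It rose with LPS (1.77, adjusted p = 9.41e-05), and its differences with IL-4 alone (0.76, adjusted p = 0.0382) and between IL-4+LPS and LPS samples (0.97, adjusted p = 0.0152) lost the call in 6 and 3 of the 12 fits that left out 1 sample.

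Of the ligand-specific receptor chains that pair with gp130 or act beside it, 3 of 5 passed the filter, and with IL-4 alone 2 were higher and 1 was lower, against 16.0% and 21.0% of all rows. Il31ra, the IL-31 receptor chain, had at most 0.0240 FPKM in controls and 4.03, 4.74 and 4.27 FPKM in IL-4 samples. It had at most 0.0168 FPKM in LPS samples and 1.91, 1.76 and 1.44 FPKM in IL-4+LPS samples, and was higher with IL-4 in both comparisons (2.40, adjusted p = 3.31e-08, and 1.42, adjusted p = 1.24e-06). Il31ra passed the filter only through samples with IL-4, the groups in which it was called higher. Il11ra1, the IL-11 receptor chain, had 22.4, 25.5 and 23.9 FPKM in controls and 66.9, 79.2 and 73.6 FPKM in IL-4 samples, with 9.16, 9.19 and 7.91 FPKM in LPS and 40.0, 36.4 and 38.1 FPKM in IL-4+LPS samples. Its order of groups was that of Il6st except that IL-4+LPS samples stayed above controls. It rose with IL-4 by 1.57 (adjusted p = 4.97e-07) and fell with LPS by 1.35 (adjusted p = 2.29e-07), and its reads may be shared with the near-identical copy Il11ra2, so its level is uncertain. Lifr, the LIF receptor, was lower with IL-4 (-0.74, adjusted p = 0.00147), and its lower level with LPS (-0.52, adjusted p = 0.00379) turned to 0.05 under quantile normalization.

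Of the IL-12 family receptors, 2 of 4 passed the filter, while Il12rb1 and Il23r stayed under 1 FPKM. Il27ra, the IL-27 receptor chain, had 1.52, 1.85 and 2.09 FPKM in controls and 4.67, 6.00 and 5.27 FPKM in IL-4 samples. LPS samples had 1.35, 1.40 and 1.35 FPKM and IL-4+LPS samples 4.10, 3.72 and 4.16 FPKM, so the samples with and without IL-4 did not overlap. It rose with IL-4 alone (1.16, adjusted p = 1.08e-05) and was higher in IL-4+LPS than in LPS samples (1.08, adjusted p = 1.93e-05). Il12rb2, a chain of the IL-12 receptor, was lower with IL-4 alone (-0.64, adjusted p = 0.00224). The lower levels of Il27ra (-0.25, adjusted p = 0.0407) and Il12rb2 (-0.41, adjusted p = 0.0103) in LPS than in control samples turned to 0.33 and 0.18 under quantile normalization, and the Il27ra call was lost in 7 of the 12 fits that left out 1 sample.

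**Figure D5:**
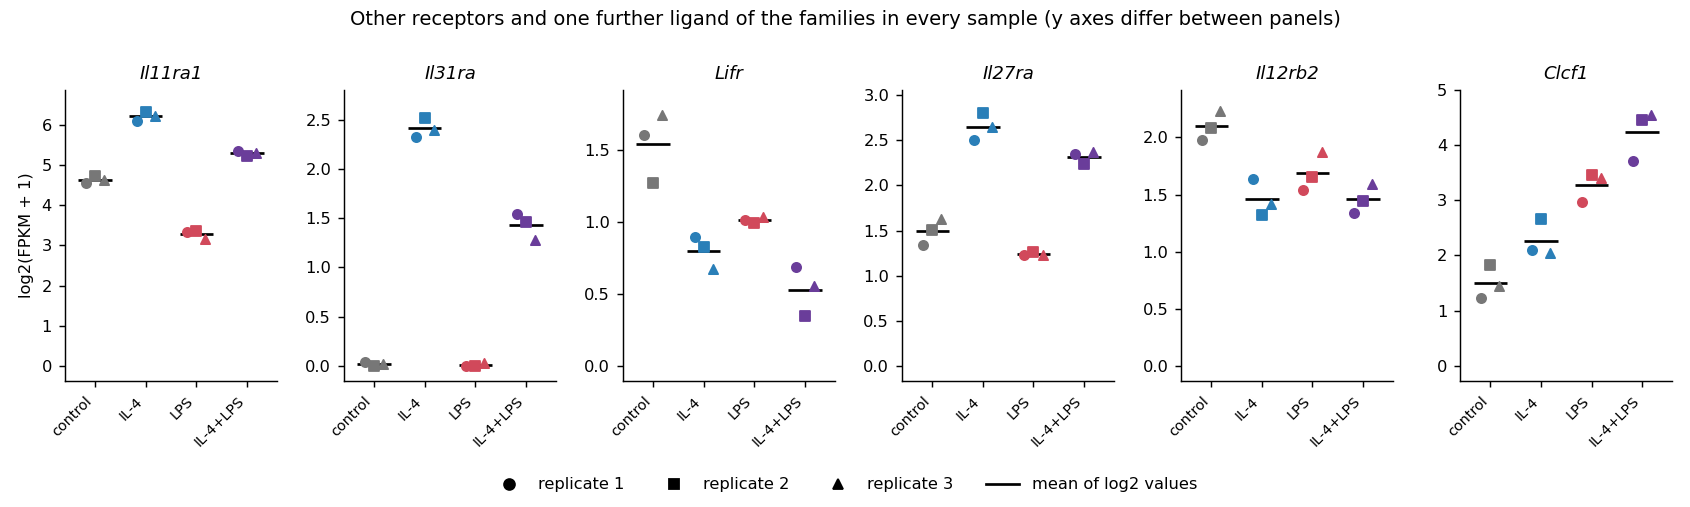
Levels of 5 further receptor genes of the families and of the ligand gene Clcf1 in each of the 12 samples, as log2(FPKM + 1), with symbols for replicates 1 to 3 and a bar at the group mean. Il11ra1, Il31ra and Il27ra are higher in every sample with IL-4 than in the matching samples without it, and Clcf1 is highest in the IL-4+LPS samples.

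Genes that carry the signal inside the cell were examined next. Of 7 JAK-STAT genes of the family, 6 passed the filter, and all 6 were higher in LPS than in control samples and in IL-4+LPS than in IL-4 samples, where 16.9% and 15.0% of all rows were. Jak2, a kinase bound to gp130, rose most (4.05, adjusted p = 4.16e-09), from 9.60, 8.76 and 8.48 FPKM in controls to 136, 172 and 185 FPKM in LPS samples. Stat3, the main transcription factor downstream of gp130, had 61.1, 85.1 and 85.9 FPKM in LPS samples and 29.5, 50.7 and 47.7 FPKM in IL-4+LPS samples. These groups did not overlap, and Stat3 was lower after IL-4 pretreatment (-0.86, adjusted p = 0.00565), as was the kinase gene Jak1 (-0.40, adjusted p = 0.0108), whereas neither passed with the compared groups alone in the fit (adjusted p = 0.0528 and 0.0583).

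Of 8 feedback inhibitors and STAT3 target genes, all of which passed the filter, 7 were higher and 1 lower in LPS than in control samples, against 16.9% and 57.7% of all rows. Socs3, which blocks gp130 signalling, had 0.363, 1.43 and 0.810 FPKM in controls and 259, 666 and 645 FPKM in LPS samples (8.05, adjusted p = 1.90e-07). With IL-4 alone, 3 of the 8 were higher and 2 lower, against 16.0% and 21.0% of all rows. Cish (3.64, adjusted p = 0.000204) and Socs1 (4.17, adjusted p = 2.55e-06) were among those already higher with IL-4 alone. The interaction of Socs1 was -3.21 (adjusted p = 0.00102). In IL-4+LPS minus LPS, 2 of the 8 were higher and 2 lower, against 15.0% and 15.8% of all rows. Cish, a STAT5 target and cytokine signalling inhibitor, went from 5.80, 20.4 and 18.7 FPKM in LPS samples to 67.1, 193 and 179 FPKM in IL-4+LPS samples (3.23, adjusted p = 0.000488). Socs1 was higher (0.96, adjusted p = 0.0278) and Cebpd, a transcription factor gene induced by IL-6, was lower (-1.18, adjusted p = 0.0141), and both lost the call with the compared groups alone in the fit (adjusted p = 0.108 and 0.0864). Of the 3 genes for shedding of the IL-6 receptor, Rhbdf2 (2.32, adjusted p = 1.92e-07) and Adam17 (0.85, adjusted p = 0.000115) rose with LPS and Adam10 fell (-0.74, adjusted p = 0.000752), and their differences in IL-4+LPS minus LPS were 0.18 (adjusted p = 0.384), -0.28 (adjusted p = 0.125) and 0.09 (adjusted p = 0.691).

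The rows whose log2 levels followed each of 4 members most closely over the 12 samples were listed as a description, and since the samples fall into groups with and without LPS, high correlations are common. For Il6 these were Tnfsf15, Hivep1, Cggbp1, Lad1 and Sbds (Pearson r from 0.992 to 0.998). Tnfsf15, a cytokine of the TNF superfamily, had mean levels of 9.95 FPKM in LPS and 27.8 FPKM in IL-4+LPS samples. For Il12a they were Inhba, Brd2, Serpina3f, Schip1 and Slamf1 (r from 0.987 to 0.992). Schip1 ends 64.2 kb before Il12a on the same chromosome and had means of 1.42 FPKM in LPS and 4.69 FPKM in IL-4+LPS samples. The list for Il12b held Adora2a, Abtb2, Src, Lhx2 and Socs3 (r from 0.996 to 0.997), and that for Il27 held Ptgs2, Cxcl3, Il15ra, Nfkb1 and Cxcl1 (r from 0.996 to 0.999).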

How the data were processed

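RNA-seq was performed on 12 BMDM samples, 3 in each of 4 groups, with groups taken from the sample labels. The authors used poly-A selected TruSeq libraries from 1 µg total RNA, a kit that marks no strand, mapped the reads to mm10 with TopHat2 2.0.7 and deposited FPKM values from Cufflinks 2.0.2, 1 table per sample, per the submitters' processing notes and the study's methods. The gene annotation was not given in the sources used here. Each FPKM value is a share of its sample's mapped fragments, so that a strong rise of some genes lowers the values of all others. LPS is given as 100 ng/ml after the labels, while the study's general methods use another unit.

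Tables were joined on symbol, locus and start site, giving 23847 rows. Rows with at least 1 FPKM in at least 1 sample (11191) entered a group-means model over all 12 samples on log2(FPKM + 1), fitted with limma 3.58.1 in R 4.3.3 (eBayes with intensity trend), with Benjamini-Hochberg adjustment within each contrast and a threshold of 0.05. The script was tested on simulated data. Members and gene lists were chosen with earlier results of these data known. All 10 members were named, and of each list up to 4 genes with the largest change past the threshold in the contrast described. The most similar rows were ranked by Pearson correlation of log2 levels.

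Fragment counts were not in the files, so absolute depth is unknown. Relative depth was read from the steps of values below 0.3 FPKM, and 65 of 66 sample pairs fitted a common set of depths from 0.99 to 3.30. Fragment numbers of low members were read from the same steps where at least 3 low values fitted within 0.1 of a whole number and the gene had 1 start site in the files. Ratios used values of at least 0.05 FPKM. Coordinates of genes are those of the files with 1 added to the start, and overlaps between exons come from GENCODE vM21. Alternatives were a pseudocount of 0.1, no filter, a filter of 1 FPKM in 3 samples, quantile normalization, median scaling, no trend, the compared groups alone, a replicate block, a per-gene Tukey test, replicates 2 and 3 alone, and each sample left out in turn. 1 listed gene is not reported here.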

Additional observations from a re-analysis of the deposited data

Results flagged for a closer look

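For 3 members the response to LPS differed between BMDMs with and without IL-4 pretreatment by the interaction term of the limma fit. Il12a had an interaction of 2.96 on the log2 scale (adjusted p = 0.00199), and 3 of 3 IL-4+LPS samples were above all LPS samples. Il6 had an interaction of 2.23 (adjusted p = 0.0119) with the same separation of samples. Osm had an interaction of 1.71 (adjusted p = 0.00501), with responses of opposite sign, -1.15 without IL-4 and 0.56 after it, while 2 of 3 IL-4+LPS samples were above all LPS samples. Replicate 1 was the lowest of its group for 7 of the 10 members in LPS samples and for 8 of 10 in IL-4+LPS samples. With replicates 2 and 3 alone the interaction was 2.93 for Il12a, 2.61 for Il6 and 2.0 for Osm, all past the threshold, and with a replicate block all 3 passed too (adjusted p = 0.000746, 0.00574 and 0.00672). Over the 12 fits that each left out 1 sample, the interaction ranged from 2.63 to 3.30 for Il12a, from 1.94 to 2.66 for Il6 and from 1.53 to 1.99 for Osm, and passed the threshold in all 12.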

How the results depend on the processing

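Over 981 re-computed member results, 936 kept their direction and their side of the threshold, 23 lost it, 10 passed it newly and 12 changed sign, and for the listed genes 1220 of 1276 kept both. The lost calls were those of Osm in IL-4+LPS minus LPS and IL-4+LPS minus IL-4, of Il23a in IL-4+LPS minus LPS and of Il6 in the interaction, and the new ones were of Il23a and Il27. The numbers of members called moved past 1.5 times in 2 cases: 3 members were higher in IL-4+LPS minus LPS with the compared groups alone in the fit, and 5 had a higher interaction with replicates 2 and 3 only. The sign changes of members were all in differences that had not passed. Il12b turned to 0.17 in the interaction with a pseudocount of 0.1, and over the fits without 1 sample ranged from -0.38 to 0.22 between IL-4+LPS and LPS samples and from -0.34 to 0.25 in the interaction. Over the same fits, IL-4 minus control ranged from -0.15 to 0.069 for Il6 and from -0.43 to 0.18 for Il27, and the interaction from -0.29 to 0.024 for Il6ra and from -0.0073 to 0.25 for Il6st. Il6st also turned to -0.017 in the interaction with replicates 2 and 3 only. Under quantile normalization the LPS differences of Lifr, Il12rb2 and Il27ra turned to 0.045, 0.18 and 0.33, the last past the threshold (adjusted p = 0.0122). The cause of these changes was not tested. Il23a passed in LPS minus control with a pseudocount of 0.1 (2.25, adjusted p = 0.0394), and lost the call between IL-4+LPS and LPS samples with the compared groups alone (adjusted p = 0.075).

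The replicate numbers were not taken to pair the samples. Neither the labels nor the study's description say which animal or experiment a number stands for. Samples of the same number did share some variation: 11 of 18 such pairs of deviations from group means correlated above 0.1 (r from 0.0024 to 0.386). The first principal component of these deviations held 28.2% of their variance. Replicate 1 of every group scored 15.5 to 33.3 on it, and replicates 2 and 3 scored -18.6 to -4.45. The main model holds no term for this difference, and its cause was not tested. With a replicate block, the Il23a interaction passed the threshold (2.54, adjusted p = 0.0472), and no other member call changed. Low levels limit Il23a, Lif and the groups without LPS of Il6, Il12a and Il12b, where values rest on few fragments.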

Other observations

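Of 15 transcription factor genes known to act on Il6 and Il12 genes, all measured, 9 were higher and 4 lower in LPS than in control samples, against 16.9% and 57.7% of all rows. Nfkbiz, a nuclear cofactor of NF-kB needed for Il6 expression, rose from 8.63, 6.08 and 7.04 FPKM to 215, 243 and 249 FPKM (4.85, adjusted p = 6.88e-09, limma). It was lower with IL-4 alone, at 0.887, 0.510 and 0.516 FPKM (-2.33, adjusted p = 4.41e-06). In IL-4+LPS minus LPS, 4 of the 15 were higher and 1 lower, against 15.0% and 15.8% of all rows. The other 10 did not pass. Nfkbiz was among these, with 133, 200 and 206 FPKM in IL-4+LPS samples (-0.41, adjusted p = 0.101). Irf8, a factor that acts on Il12b, had 86.4, 76.6 and 75.7 FPKM in controls and 54.3, 43.1 and 44.9 FPKM in IL-4 samples. It was lower with LPS (-1.29, adjusted p = 2.35e-05) and with IL-4 alone (-0.74, adjusted p = 0.00378), and its interaction was 3.16 (adjusted p = 2.62e-05). Irf8 was higher in IL-4+LPS samples, at 132, 205 and 200.4 FPKM, than in LPS samples, at 33.4, 31.3 and 31.2 FPKM (2.43, adjusted p = 1.57e-06). Irf1 (0.80, adjusted p = 0.00235) and the NF-kB subunit gene Rel (0.65, adjusted p = 0.00812) were also higher. Bcl6, a transcriptional repressor, was lower, with 45.7, 47.6 and 45.7 FPKM in LPS samples and 13.5, 13.1 and 10.1 FPKM in IL-4+LPS samples (-1.85, adjusted p = 3.52e-07).

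Of 9 genes for RNA-binding regulators of cytokine mRNA, 5 were higher and 2 lower in LPS than in control samples, against 16.9% and 57.7% of all rows. Zc3h12c (3.09, adjusted p = 2.09e-07) and Zfp36 (2.29, adjusted p = 3.90e-05), the latter encoding a factor that also promotes mRNA decay, rose. Zfp36l2 and Zfp36l1, which promote decay of AU-rich mRNAs, fell with LPS by 3.95 (adjusted p = 1.36e-07) and 3.68 (adjusted p = 4.65e-07). Zfp36l2 went from 94.3, 93.0 and 83.2 FPKM to 8.08, 3.68 and 3.77 FPKM, and was at 16.0, 24.1 and 21.4 FPKM in IL-4+LPS samples. In IL-4+LPS minus LPS, 2 of the 9 were higher, Zfp36l2 (1.85, adjusted p = 0.00016) and Zfp36l1 (1.22, adjusted p = 0.00458), against 15.0% of all rows.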
